A study of Mus musculus with 18 samples.

Results

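Hearts of mice labelled HXP were compared with hearts of mice labelled MI (myocardial infarction), 6 libraries of each, which are 12 of the 18 libraries of the study. The members were chosen by sample title alone, and differences are given as HXP minus MI over all genes. Heart tissue had been frozen in liquid nitrogen, and its total RNA was cleared of ribosomal RNA before sequencing. The other 6 libraries, from control mice, entered the statistical model and are given beside the comparison. Differences from control use the same MI or HXP libraries, for genes mostly named by HXP minus MI. They set levels side by side, and their p-values are not independent of that difference. By its title the series studies HXP as a treatment of mice with acute infarction, and the labels give each group by its name only. The sources used here do not give strain, age, sex, the make-up and dose of HXP, the region of heart taken, or when infarction and collection took place. They also do not state that each HXP mouse had an infarct, or that replicates came from separate animals. The p-values therefore measure only how much these libraries vary, which may be technical.

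An infarct is heart muscle that dies when its blood supply stops. Surviving muscle cells switch on stress genes such as the natriuretic peptides, immune cells enter and clear debris, and activated fibroblasts deposit collagen that becomes the scar. Heart muscle burns mainly fatty acids and also carries a circadian clock, in which Clock and Bmal1 (gene Arntl) drive Per, Cry, Nr1d1 and Nr1d2, whose products feed back on them. In bulk tissue, fewer cells of a type and less RNA per cell cannot be told apart.

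Libraries held 75.8 to 81.1 M reads (M, mega), as recovered from the steps of their FPKM values (reads normalised to exon length and library size), and 9888 to 12820 genes at 1 FPKM or more. Heart muscle markers were high in both groups, with Tnnt2 (cardiac troponin T) ranging from 483 to 827 FPKM over HXP and from 459 to 672 FPKM over MI. Mitochondrial genes took 44.7% ± 8.12 of the FPKM sum in HXP and 41.6% ± 4.72 in MI (SD, n = 6 each), a difference of 3.15 percentage points (two-sided exact permutation test, p = 0.424). MI 5 held lung epithelial markers at a summed 1192 FPKM, against 0.686 to 2.15 FPKM in the other MI libraries and 0.332 to 3.03 FPKM in HXP. MI 4 stood apart for skeletal muscle markers, with a mean log2(FPKM + 1) of 4.24 against 1.60 to 2.13 in the other MI libraries and 1.46 to 2.47 in HXP. Among pairs within MI and within HXP, MI 1 and MI 2 were the closest but differed by more than counting noise. Headers give each library a number only. The numbers were cut here into 3 runs wherever they jumped by more than 50, and what a run stands for is not given. HXP 1, 3, 4 and 6 shared a run with no MI library, while HXP 2 and HXP 5 shared the run of 10 libraries with MI 1, 2, 3, 4 and 6.

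No gene passed an adjusted p of 0.05 between HXP and MI on the values as deposited (limma, Benjamini-Hochberg over 13710 genes, 0% called). At an unadjusted p below 0.05, 259 genes lay higher (1.89%) and 1632 lower (11.9%) in HXP, and 75.4% of all genes had a negative fold change. The median log2 fold change of all genes was -0.12. After scaling each library by its median ratio to the mean library that median was -0.003, and 4 genes passed (0.0292% called). Gpr146, Slbp and Arhgap23 fell (3 genes, 0.0219%) and Gsta3 rose (1 gene, 0.00729%) on that scale, each at a limma adjusted p of 0.0338. The scaled fit called 0 genes without MI 1, MI 2, MI 3, MI 4, MI 6, HXP 5 or HXP 6. Of the 4, it called Arhgap23, Gsta3 and Slbp without MI 5, Arhgap23 and Gpr146 without HXP 3, Arhgap23 without HXP 4 and none without HXP 2. Without HXP 1 it called 125 genes. On that scale, 815 genes lay higher (5.94%) and 1426 lower (10.4%) at an unadjusted p below 0.05, and 49.3% of all genes had a positive and 50.7% a negative fold change. Voom on the recovered reads called 0 genes, with 246 higher and 1791 lower at an unadjusted p below 0.05. With the run as a covariate, 0 genes passed on either scale, and 138 lay higher and 512 lower as deposited at an unadjusted p below 0.05. A fit of the 12 libraries alone, without the control libraries in the estimate of spread, called 0 genes on either scale.

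The lower values in HXP moved with the base composition of genes. Genes were put into 5 classes of near equal size by exonic GC content. The median log2 fold change was -0.03 in the class with the lowest GC content and -0.33 in the class with the highest. In that highest class, 34.2% of genes lay lower at an unadjusted p below 0.05, against 2.23% in the lowest. HXP 1, 2 and 3 deviated by -0.03, -0.02 and 0.09 from the MI mean in the highest class, while HXP 4, 5 and 6 deviated by -0.42, -0.66 and -0.95. From the lowest to the highest class HXP 2 also moved from 0.11 to -0.02, HXP 3 from 0.22 to 0.09, MI 1 from 0.06 to -0.05 and MI 2 from 0.05 to -0.06. HXP 1 moved up from -0.06 to -0.03, MI 3 from 0.00015 to 0.12 and MI 5 from 0.11 to 0.23. MI 3 and MI 5 are part of the MI mean used as reference. Classes by exon length spanned -0.09 to -0.14. With each library's GC trend removed, 765 genes lay higher (5.59%) and 791 lower (5.78%) at an unadjusted p below 0.05. Removing the trend also took out each library's overall offset, so the median of all genes became -0.0002, against -0.12 as deposited. A gene's shift with the trend removed thus holds both parts. The part of base composition in single genes was not tested. A gene's fold change with the trend removed is given where it differs by over 1.5 times. The counts for gene lists below stand against all genes as deposited, unless another scale is named. Of all genes as deposited, 75.4% had a negative fold change, and 11.9% lay lower and 1.89% higher at an unadjusted p below 0.05.

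**Figure D1:**
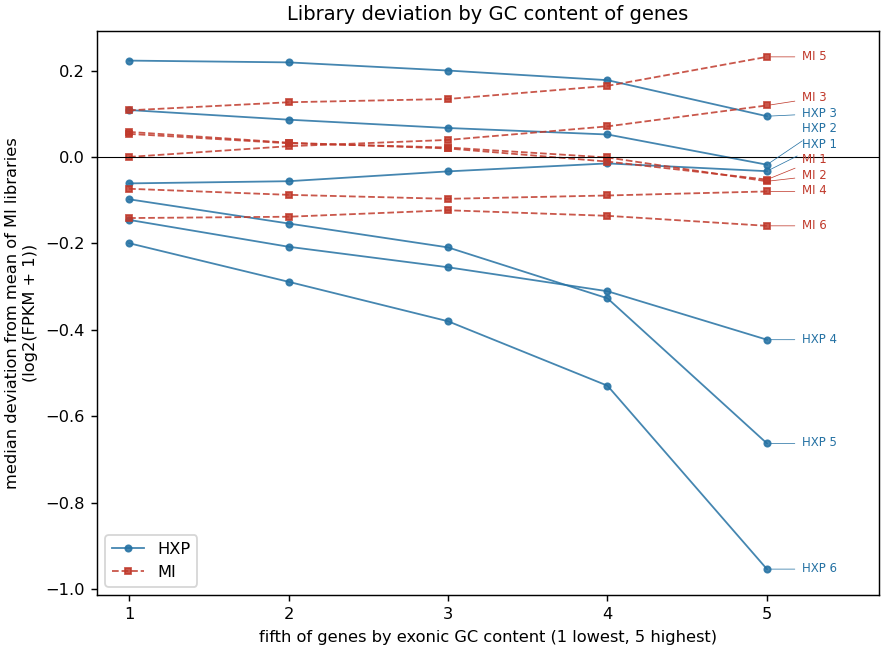
Median deviation of each HXP (circles, solid) and MI (squares, dashed) library from the mean of the MI libraries, on the log2(FPKM + 1) scale, over 5 classes of genes by exonic GC content. HXP 4, 5 and 6 stand at -0.42, -0.66 and -0.95 in the class with the highest GC content, whereas the other 9 libraries stay between -0.16 and 0.23 there.

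Gpr146 encodes an orphan G protein-coupled receptor that takes part in liver cholesterol metabolism. It lies on chromosome 5 (GRCm38, 139377697 to 139396415, plus strand). HXP 1 to 6 held 2.34, 0.615, 4.04, 0.515, 0.336 and 0.599 FPKM, and MI 1 to 6 held 7.23, 4.51, 10.7, 7.75, 10.3 and 5.96 FPKM. All 6 HXP libraries lay below all 6 MI libraries, and 4 of them were under 1 FPKM. The mean was 5.49 times as high in MI as in HXP, with a log2 fold change of -2.0 (standard error 0.34, adjusted p = 0.102 in limma) as deposited and -1.88 after scaling. Control hearts stood at 8.53 ± 3.48 FPKM (SD, n = 6), so MI was near control (log2 fold change -0.07, adjusted p = 0.877 in limma). HXP lay 2.07 log2 units below control (log2 fold change -2.07, adjusted p = 0.0293 in limma). The fold change of HXP against MI was -2.44 in the run of 10 libraries alone (adjusted p = 0.271 in limma), and it passed with the GC trend removed (-1.84, adjusted p = 0.0323 in limma). Over 48 alternative settings its adjusted p ran from 0.00555 to 0.592, and it passed in 11.

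Genes next to Gpr146 lay lower in smaller measure. 3110082I17Rik, which overlaps it on the other strand, averaged 1.19 ± 0.467 FPKM over HXP, whereas MI averaged 1.92 ± 0.351 FPKM (SD, n = 6 each, log2 fold change -0.44, adjusted p = 0.248 in limma), with a fold change of -0.21 when the GC trend was removed. The library kit named in the labels is not said to keep strand, so reads of the overlapping stretch cannot be assigned to one or the other. Gper1, a membrane receptor for oestrogen, lies inside the span of 3110082I17Rik and does not overlap Gpr146. It averaged 0.626 ± 0.274 FPKM over HXP, whereas MI averaged 1.06 ± 0.175 FPKM (SD, n = 6 each, log2 fold change -0.35, adjusted p = 0.251 in limma). With the GC trend removed its fold change was -0.13. Zfand2a, Cox19 and Adap1 had fold changes of -0.23, -0.29 and -0.14 as deposited and -0.11, -0.16 and 0.20 with the GC trend removed.

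**Figure D2:**
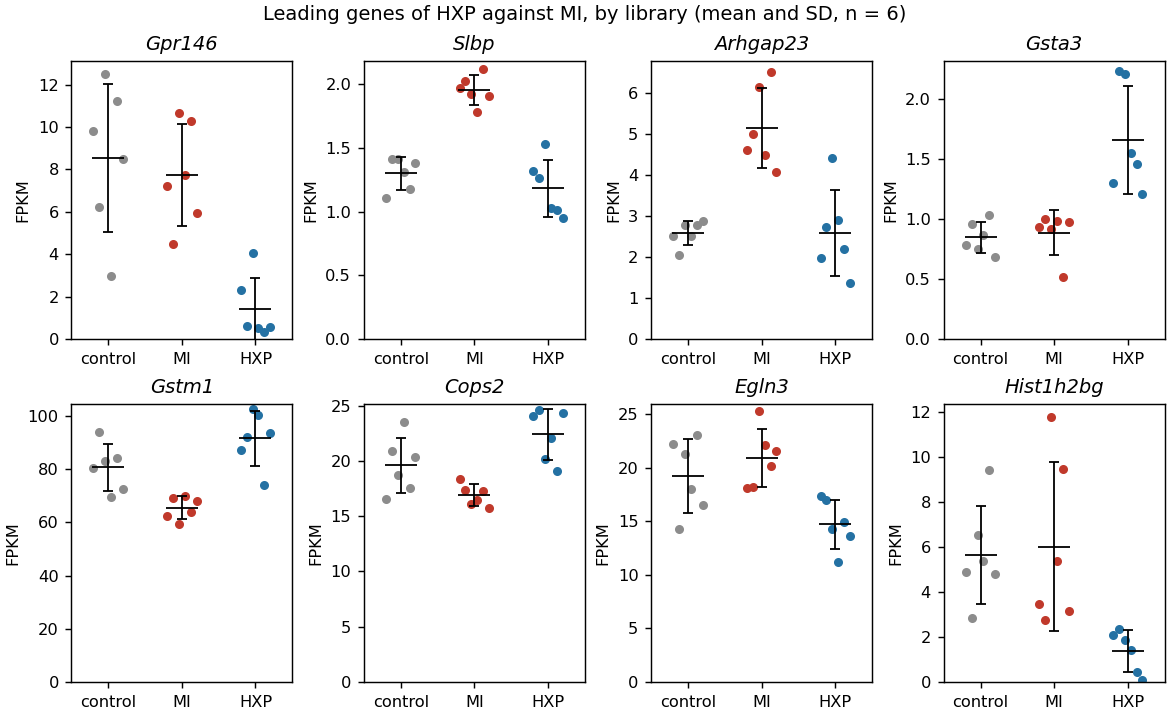
FPKM of 8 genes in each control, MI and HXP library (points), with mean (horizontal tick) and SD (error bar, n = 6, error bars that would pass 0 end at the axis). HXP and MI do not overlap for Gpr146, Slbp, Gsta3, Gstm1, Cops2, Egln3 and Hist1h2bg, while HXP 3 overlaps MI for Arhgap23, and HXP means of Slbp and Arhgap23 sit near control.

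Slbp encodes the stem-loop binding protein, which binds the 3' end of replication-dependent histone mRNAs in place of a poly(A) tail. It lies on chromosome 5 (33634952 to 33652574, minus strand). HXP 1 to 6 held 1.32, 1.26, 1.53, 1.03, 1.01 and 0.947 FPKM, against 1.96, 2.02, 1.92, 1.78, 2.12 and 1.90 FPKM in MI 1 to 6. The groups did not overlap, and the spread in MI was narrow. The log2 fold change was -0.44 (standard error 0.07, adjusted p = 0.102 in limma) as deposited, and it passed after scaling (-0.34, adjusted p = 0.0338 in limma) and with the GC trend removed (-0.37, adjusted p = 0.0135 in limma). Over 47 alternatives its adjusted p ran from 0.00537 to 0.973, and it passed in 7. Control hearts stood at 1.30 ± 0.131 FPKM (SD, n = 6). MI rose over control (log2 fold change 0.36, adjusted p = 0.0137 in limma), and HXP stood near it (-0.08, adjusted p = 0.427 in limma). The neighbours Fam53a, Tacc3, Fgfr3, Letm1 and Tmem129 had fold changes between -0.24 and -0.06, none below an unadjusted p of 0.05, and between -0.13 and 0.15 with the GC trend removed.

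Of 67 replication-dependent histone genes, 14 reached the mean of 0.5 FPKM needed for testing. Of these, 11 had a negative and 3 a positive fold change, 7 lay lower at an unadjusted p below 0.05, and none passed after adjustment. The negative share was close to the 75.4% of all genes, while the share lower was above 11.9%. With the GC trend removed 5 of the 14 lay lower, against 5.78% of all genes on that scale. The median log2 fold change of the 14 was -0.49 as deposited, -0.39 after scaling and -0.23 with the GC trend removed. Libraries depleted of ribosomal RNA can hold these transcripts, most of which lack a poly(A) tail. Hist1h2bg was the only 1 of the 14 in which all HXP libraries lay below all MI libraries. It held 2.11, 2.36, 1.86, 1.40, 0.438 and 0.0843 FPKM in HXP 1 to 6 and 3.49, 2.76, 11.8, 5.39, 9.46 and 3.16 FPKM in MI 1 to 6 (log2 fold change -1.51, standard error 0.34, adjusted p = 0.202 in limma). HXP 5 and HXP 6 were the lowest, as in the class of genes with the highest GC content.

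Hist1h4h ranged from 0.0277 to 4.79 FPKM in HXP (median 1.13) and from 2.77 to 25.2 FPKM in MI (median 9.01). Its log2 fold change was -2.15 (standard error 0.47, adjusted p = 0.196 in limma), and only HXP 1 reached the MI range. Hist1h2bc had a fold change of -1.33 (standard error 0.34, adjusted p = 0.235 in limma), with 5 of 6 HXP libraries below all MI libraries. Control hearts stood at 12.8 ± 4.81 FPKM for Hist1h4h, 5.64 ± 2.20 FPKM for Hist1h2bg and 30.9 ± 8.35 FPKM for Hist1h2bc (SD, n = 6), which is within the MI range for each. The summed histone level was 33.5 to 107 FPKM in HXP and 96.1 to 192 FPKM in MI. Members of this family are near-identical in sequence, so reads may be split between copies. Apart from Slbp, none of the other 9 tested histone-processing genes lay below an unadjusted p of 0.05, and their fold changes ran from -0.16 to 0.03. Cell cycle genes had a median of -0.26, with 2 of 19 lower.

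Glutathione transferases couple glutathione to reactive compounds and so detoxify lipid peroxides and drugs. Gsta3, an alpha-class enzyme, held 1.30, 2.23, 2.21, 1.55, 1.46 and 1.21 FPKM in HXP 1 to 6. MI 1 to 6 held 0.935, 1.00, 0.922, 0.981, 0.517 and 0.976 FPKM, so every HXP library lay above every MI library. The log2 fold change was 0.48 (standard error 0.10, adjusted p = 0.196 in limma) as deposited and 0.54 after scaling, where it passed. Control hearts, at 0.849 ± 0.131 FPKM (SD, n = 6), lay with MI, and HXP rose over control (log2 fold change 0.51, adjusted p = 0.0453 in limma). Against MI it passed in 5 of 47 alternatives, with adjusted p from 0.0338 to 0.973. The 250 bases before its start, chr1:21240335-21240584 on the plus strand (RefSeq, GRCm38.p6), are shown because they hold the core of an antioxidant response element, TGACNNNGC, here in capitals. These letters occur on either strand in 10.2% of 32851 RefSeq promoters of that length, and in any promoter of 11.5% of 27025 genes. Of the 22 glutathione transferases in the table, 4 hold them (Gsta3, Gstm5, Gstm7 and Mgst1).

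Gsta3: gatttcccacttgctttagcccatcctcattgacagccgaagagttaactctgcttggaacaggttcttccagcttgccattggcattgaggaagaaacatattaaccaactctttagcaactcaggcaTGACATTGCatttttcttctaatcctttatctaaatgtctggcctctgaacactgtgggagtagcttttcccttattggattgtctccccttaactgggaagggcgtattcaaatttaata

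Gstm1, a mu-class enzyme on chromosome 3 (108012255 to 108017973, minus strand), was among the most abundant of the family. HXP 1 to 6 held 87.1, 92.0, 102, 100.3, 73.9 and 93.7 FPKM, against 62.2, 69.3, 59.4, 70.1, 63.7 and 67.9 FPKM in MI 1 to 6. The groups did not overlap, with HXP 5 the nearest to MI. The log2 fold change was 0.47 (standard error 0.09, adjusted p = 0.173 in limma) as deposited, 0.63 after scaling (adjusted p = 0.150 in limma) and 0.33 in the run of 10 libraries alone (adjusted p = 0.639 in limma). It passed in 2 of 48 alternatives. Gstm1 fell in MI against control (log2 fold change -0.29, adjusted p = 0.0222 in limma), where it stood at 80.6 ± 8.72 FPKM (SD, n = 6), and HXP stood at or above control (0.18, adjusted p = 0.169 in limma). Its neighbour Gstm2 ranged from 32.0 to 47.4 FPKM in HXP and from 33.9 to 42.5 FPKM in MI, with a fold change of 0.02 that changed sign when 1 of several libraries was left out. The paralogs Gstm7, Gstm6 and Gstm4 had fold changes of 0.25, 0.08 and 0.03 as deposited. With the GC trend removed Gstm7, Gstm4 and Gstm2 stood at 0.39, 0.16 and 0.13, and Gstm6 at 0.195. Reads shared among mu-class copies may be split between them.

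Of 24 listed glutathione transferases, 19 were tested and 15 had a positive fold change, against 24.6% of all genes. The median was 0.08 as deposited, 0.20 after scaling and 0.24 with the GC trend removed. Gstm1, Gsta3 and Gsta1 lay higher at an unadjusted p below 0.05 and none lower. Gsta1 is listed at 0 in MI 6 and ranged up to 1.01 FPKM in MI, against 0.526 to 1.37 FPKM in HXP (log2 fold change 0.45, adjusted p = 0.344 in limma). Gstk1, the mitochondrial and peroxisomal enzyme, had a median of 32.8 FPKM in HXP and 20.9 FPKM in MI with wide overlap (log2 fold change 0.43, adjusted p = 0.362 in limma). Gsta4, which acts on the lipid peroxidation product hydroxynonenal, had a fold change of 0.23 (adjusted p = 0.439 in limma). Of 21 genes of the NRF2 and thioredoxin list, 5 had a positive fold change, a share close to the 24.6% of all genes, and the median was -0.20. After scaling 4 lay higher and 3 lower at an unadjusted p below 0.05, against 5.94% and 10.4% of all genes on that scale. Gpx1, glutathione peroxidase, was among the lower ones, at 42.8, 66.1, 69.1, 19.5, 6.42 and 1.19 FPKM in HXP 1 to 6 and 39.1 to 84.3 FPKM in MI (log2 fold change -1.56, standard error 0.64, adjusted p = 0.323 in limma).

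The clock lists held members on both sides. Of 15 core clock genes, 10 had a positive fold change, 5 lay higher and 3 lower at an unadjusted p below 0.05, and the median was 0.05 as deposited, 0.19 after scaling and 0.27 with the GC trend removed. Of 8 clock output genes, 7 had a positive fold change and 3 lay higher (median 0.30, 0.45 and 0.53 on those scales). None passed after adjustment as deposited or after scaling. With the GC trend removed, 7 core genes lay higher and 1 lower, and 5 output genes lay higher, at an unadjusted p below 0.05. On that scale 5.59% of all genes lay higher and 5.78% lower. The hour of tissue collection is not given in the sources used here, and its part in these differences was not tested.

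Promoters of 4 of these genes are shown because they hold the letters that clock factors are known to bind. These are the E-box CACGTG, read by Clock and Bmal1, and the D-box TTATGTAA or TTACGTAA, read by Hlf, Tef and Dbp, in capitals. Each is the 250 bases before the start in RefSeq (GRCm38.p6), given 5' to 3' on the gene's strand. Per3 is chr4:151044666-151044915 (minus strand), Ciart chr3:95882229-95882478 (minus strand), Cry1 chr10:85185055-85185304 (minus strand) and Tef chr15:81802423-81802672 (plus strand). Tef has 2 starts in RefSeq, both with CACGTG before them, and the more upstream window is shown. That window lies inside the GENCODE gene, which begins at 81802421.

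Per3: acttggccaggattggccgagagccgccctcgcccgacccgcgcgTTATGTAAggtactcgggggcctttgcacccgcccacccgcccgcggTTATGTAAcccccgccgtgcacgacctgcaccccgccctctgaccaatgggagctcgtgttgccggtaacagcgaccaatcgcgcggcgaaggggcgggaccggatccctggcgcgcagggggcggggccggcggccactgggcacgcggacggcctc
Ciart: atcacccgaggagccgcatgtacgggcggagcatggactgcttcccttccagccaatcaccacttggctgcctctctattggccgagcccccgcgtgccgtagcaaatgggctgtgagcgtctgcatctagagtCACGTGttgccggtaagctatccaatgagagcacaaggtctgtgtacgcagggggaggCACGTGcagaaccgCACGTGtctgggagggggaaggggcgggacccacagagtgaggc
Cry1: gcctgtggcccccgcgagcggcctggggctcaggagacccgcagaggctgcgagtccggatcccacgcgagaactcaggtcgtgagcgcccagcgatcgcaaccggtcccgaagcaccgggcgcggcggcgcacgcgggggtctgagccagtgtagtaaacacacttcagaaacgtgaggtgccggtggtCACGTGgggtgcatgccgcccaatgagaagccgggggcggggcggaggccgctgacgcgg
Tef: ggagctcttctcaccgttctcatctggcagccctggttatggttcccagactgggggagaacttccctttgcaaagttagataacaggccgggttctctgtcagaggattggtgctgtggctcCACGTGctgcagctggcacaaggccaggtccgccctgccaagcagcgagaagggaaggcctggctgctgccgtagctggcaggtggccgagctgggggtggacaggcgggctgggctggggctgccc

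The Per3 window holds the D-box letters at 2 places, and the Ciart window holds CACGTG at 3. On either strand, CACGTG occurs in 6.02% of 32851 promoters and the D-box letters in 0.931%. Counted by gene, with any of its promoters, the shares are 6.86% and 1.10% of 27025 genes, as in the counts that follow. Of the 12 core clock genes in the table, 4 hold CACGTG (Bhlhe41, Ciart, Cry1 and Per1) and 1 holds the D-box letters (Per3). Of 8 output genes in the table, 3 hold CACGTG (Lonrf3, Tef and Tspan4). Not all of these had a fold change of the same size, since Bhlhe41 stood at 0.02, Per1 at 0.05 and Tspan4 at 0.01.

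Nr1d2 encodes REV-ERB beta, a repressor of Arntl. It held 29.2, 26.6, 33.9, 29.0, 27.4 and 29.2 FPKM in HXP 1 to 6 and 21.2, 20.1, 19.8, 18.2, 26.7 and 23.9 FPKM in MI 1 to 6. Only MI 5 reached the HXP range, and controls stood at 22.0 ± 1.66 FPKM (SD, n = 6). The log2 fold change was 0.42 (standard error 0.09, adjusted p = 0.196 in limma) as deposited and 0.38 in the run of 10 libraries alone (adjusted p = 0.626 in limma). Its paralog Nr1d1 had the opposite sign (-0.57, standard error 0.27, adjusted p = 0.361 in limma, and -0.31 with the GC trend removed), with HXP from 17.6 to 90.1 FPKM around the MI range of 47.3 to 75.0 FPKM.

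The period genes Per3 and Per2, which encode repressors of Clock and Bmal1, had higher medians in HXP. Per3 held 5.81, 5.56, 8.94, 6.77, 4.14 and 4.22 FPKM in HXP 1 to 6 and 3.41, 3.19, 3.25, 2.80, 5.64 and 3.89 FPKM in MI 1 to 6 (log2 fold change 0.54, standard error 0.16, adjusted p = 0.256 in limma). Per2 had a median of 5.52 FPKM in HXP and 2.62 FPKM in MI (log2 fold change 0.66, standard error 0.21, adjusted p = 0.256 in limma). In both, HXP 3 was the highest of the 12 libraries and MI 5 the highest MI library. Per1 had a fold change of 0.05 (standard error 0.29) as deposited and 0.42 with the GC trend removed (adjusted p = 0.470 in limma). Cry1, the cryptochrome repressor, ranged from 1.94 to 2.94 FPKM in HXP and from 1.77 to 2.51 FPKM in MI (log2 fold change 0.19, adjusted p = 0.355 in limma, and 0.29 with the GC trend removed). Ciart, a repressor of the same loop, ranged from 3.16 to 7.29 FPKM in HXP and from 2.01 to 4.16 FPKM in MI (log2 fold change 0.57, adjusted p = 0.321 in limma).

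Among output genes, Hlf and Tef encode transcription factors that read D-boxes, and Wee1 encodes a kinase that delays entry into mitosis. Hlf held 4.40, 3.66, 5.52, 9.56, 5.39 and 7.05 FPKM in HXP 1 to 6, against 2.08, 3.29, 2.46, 2.23, 2.37 and 4.47 FPKM in MI 1 to 6 (log2 fold change 0.84, standard error 0.19, adjusted p = 0.202 in limma). MI 6 alone overlapped HXP. Tef ranged from 10.2 to 30.7 FPKM in HXP (median 23.2) and from 4.90 to 18.7 FPKM in MI (median 12.5), a fold change of 0.86 (standard error 0.29, adjusted p = 0.268 in limma). Wee1 had a median of 5.25 FPKM in HXP and 3.06 FPKM in MI (log2 fold change 0.57, standard error 0.15, adjusted p = 0.248 in limma). Dbp, the third factor of the family, had a fold change of 0.33 (adjusted p = 0.551 in limma) and of 0.62 with the GC trend removed.

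Arntl and Npas2, which encode the activator Bmal1 and a partner of it, lay lower. Arntl held 0.235, 1.19, 0.50, 0.150, 0.350 and 0.133 FPKM in HXP 1 to 6 and 1.80, 1.99, 0.998, 1.75, 0.914 and 0.407 FPKM in MI 1 to 6 (log2 fold change -0.69, standard error 0.20, adjusted p = 0.248 in limma). HXP 2 was the exception among HXP libraries and MI 6 the lowest of MI. Arntl rose in MI against control (log2 fold change 0.50, adjusted p = 0.0483 in limma), where it stood at 0.605 ± 0.308 FPKM (SD, n = 6). Npas2 had a fold change of -0.27 (adjusted p = 0.361 in limma) and -0.11 with the GC trend removed. In the run of 10 libraries alone, these and other clock genes had smaller fold changes than as deposited. Per3, Per2 and Ciart stood there at 0.44, 0.35 and 0.34, and Hlf, Tef and Wee1 at 0.52, 0.57 and 0.40. Dbp and Cry1 stood at 0.11 and 0.05, and Nr1d1, Arntl and Npas2 at -0.41, -0.42 and -0.13.

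**Figure D3:**
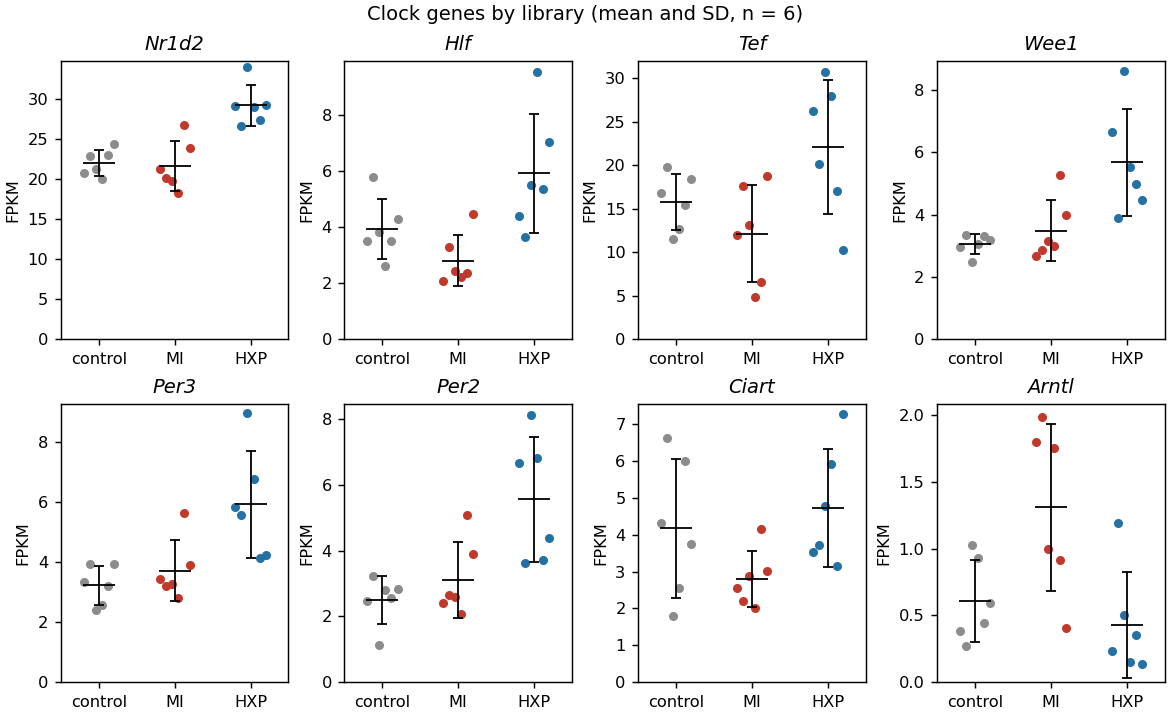
FPKM of 8 clock genes in each control, MI and HXP library (points), with mean (horizontal tick) and SD (error bar, n = 6). HXP means lie above MI means for the first 7 genes and below for Arntl, and single MI or HXP libraries overlap the other group in each panel.

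Arhgap23, on chromosome 11, encodes a GTPase-activating protein, which switches small GTPases off. It held 1.97, 2.73, 4.41, 2.90, 2.19 and 1.37 FPKM in HXP 1 to 6. MI 1 to 6 held 4.61, 5.0, 6.12, 4.48, 6.51 and 4.06 FPKM, so HXP 3 alone lay within the MI range. The log2 fold change was -0.80 (standard error 0.15, adjusted p = 0.173 in limma) as deposited and -0.67 after scaling, where it passed, but -0.34 with the GC trend removed (adjusted p = 0.307 in limma). It passed in 9 of 47 alternatives, with adjusted p from 0.00555 to 0.973. Its exonic GC content is 60.8%. Arhgap23 rose in MI against control (log2 fold change 0.76, adjusted p = 0.0137 in limma), and HXP stood near control (-0.04, adjusted p = 0.864 in limma).

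Arhgef19, a guanine nucleotide exchange factor, which switches small GTPases on, ranged from 1.84 to 5.42 FPKM in HXP and from 6.41 to 10.2 FPKM in MI, without overlap (log2 fold change -0.97, standard error 0.19, adjusted p = 0.173 in limma). With the GC trend removed its fold change was -0.45. Arhgef10l, another exchange factor, held 9.59, 9.37, 9.41, 5.98, 3.34 and 2.73 FPKM in HXP 1 to 6 against 10.7 to 15.7 FPKM in MI. Its fold change was -0.94 (standard error 0.23, adjusted p = 0.203 in limma), and it passed with the GC trend removed (-0.55, adjusted p = 0.0494 in limma). HXP 1, 2 and 3 thus lay just under the MI range and HXP 5 and 6 far under it.

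Nkx2-5, Irx4 and Nol3 belong to no list here and were named after their values were seen. Nkx2-5, a founding transcription factor of the heart, held 5.47, 4.92, 3.40, 3.64, 1.07 and 0.632 FPKM in HXP 1 to 6 and 6.81, 7.49, 22.4, 6.67, 9.03 and 7.80 FPKM in MI 1 to 6. The groups did not overlap (log2 fold change -1.44, standard error 0.36, adjusted p = 0.212 in limma), and the value with the GC trend removed was -0.69. Irx4, a ventricular transcription factor, ranged from 3.78 to 9.17 FPKM in HXP and from 7.51 to 12.1 FPKM in MI, with HXP 1 alone inside the MI range (log2 fold change -0.72, standard error 0.16, adjusted p = 0.196 in limma, and -0.29 with the GC trend removed). Nol3, which encodes the cell death inhibitor ARC, ranged from 4.53 to 8.09 FPKM in HXP and from 8.19 to 20.9 FPKM in MI, without overlap (log2 fold change -0.76, standard error 0.23, adjusted p = 0.251 in limma). Of 24 contractile and calcium-handling genes, 13 had a positive fold change, with a median of 0.05.

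Of 24 ion channel and connexin genes, 16 had a negative fold change, 7 lay lower and 1 higher at an unadjusted p below 0.05. Their negative share was below the 75.4% of all genes. After scaling 2 lay lower and with the GC trend removed 1, against 10.4% and 5.78% of all genes on those scales. The median of the list was -0.18 as deposited, -0.04 after scaling and 0.08 with the GC trend removed, so its sign turned. Cacna1g, a T-type calcium channel, ranged from 0.694 to 1.81 FPKM in HXP and from 1.86 to 3.11 FPKM in MI (log2 fold change -0.53, standard error 0.14, adjusted p = 0.248 in limma). With the GC trend removed its fold change was -0.20 (adjusted p = 0.562 in limma). Cacna1g rose in MI against control (log2 fold change 0.49, adjusted p = 0.0184 in limma). Kcnh2, a potassium channel, had a fold change of -0.58 as deposited and -0.11 with the GC trend removed. Kcnv2, a modifier of potassium channels, was the higher member, between 0.357 and 2.04 FPKM over HXP and between 0.343 and 0.780 FPKM over MI (log2 fold change 0.47, standard error 0.20, adjusted p = 0.334 in limma). It fell in MI against control (-1.01, adjusted p = 0.0136 in limma). Slc41a3, a magnesium transporter, ranged from 8.42 to 14.6 FPKM in HXP and from 13.2 to 24.4 FPKM in MI, where MI 5 was the lowest (log2 fold change -0.85, standard error 0.16, adjusted p = 0.173 in limma). Without MI 5 it passed as deposited.

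Over all genes, 16 had every HXP library above every MI library as deposited (0.117%) and 42 had every HXP library below (0.306%). Cops2 encodes a subunit of the COP9 signalosome, which regulates ubiquitin ligases. It held 24.1, 24.6, 20.2, 22.1, 19.1 and 24.4 FPKM in HXP 1 to 6 against 15.7 to 18.4 FPKM in MI (log2 fold change 0.38, standard error 0.09, adjusted p = 0.202 in limma). The other 9 subunits included 5 positive and 4 negative fold changes. Inca1, an inhibitor of cyclin A1 and CDK2, ranged from 1.84 to 2.84 FPKM in HXP and 1.28 to 1.75 FPKM in MI (log2 fold change 0.37, adjusted p = 0.203 in limma). Uchl3, a deubiquitinating hydrolase, ranged from 3.75 to 4.53 FPKM in HXP and 2.72 to 3.73 FPKM in MI (log2 fold change 0.30, adjusted p = 0.212 in limma). Both genes fell in MI against control at a limma adjusted p of 0.0151, with fold changes of -0.33 for Inca1 and -0.27 for Uchl3.

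Shld1, a shieldin subunit of DNA break repair, ranged from 5.52 to 13.7 FPKM in HXP and 3.61 to 5.43 FPKM in MI (log2 fold change 0.74, standard error 0.18, adjusted p = 0.212 in limma). Ptgds, a prostaglandin D synthase, held 193, 124, 121, 145, 128 and 189 FPKM in HXP 1 to 6 against 82.7, 46.1, 109, 81.9, 119 and 79.5 FPKM in MI 1 to 6 (log2 fold change 0.82, standard error 0.22, adjusted p = 0.239 in limma). It fell in MI against control (-0.98, adjusted p = 0.0139 in limma). Lonrf1, a ring finger protein, had 5 of 6 HXP libraries above all of MI (log2 fold change 0.34, adjusted p = 0.203 in limma). Ces1d, a carboxylesterase that hydrolyses triglycerides, held 38.3, 17.3, 17.8, 44.2, 29.4 and 60.4 FPKM in HXP 1 to 6 and 8.92, 7.51, 13.5, 10.2, 10.4 and 29.7 FPKM in MI 1 to 6. Its fold change was 1.32 (standard error 0.30, adjusted p = 0.202 in limma), and only MI 6 reached the HXP range. Ces1d fell in MI against control (-1.62, adjusted p = 0.0127 in limma), where it stood at 39.2 ± 4.29 FPKM (SD, n = 6).

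Matrix genes, whose products form the scar, had the most negative median of all lists. All 40 tested had a negative fold change as deposited and after scaling, with medians of -1.17 and -1.02, and 13 lay lower at an unadjusted p below 0.05. None passed after adjustment, and HXP libraries ranged widely. The summed level was 2375, 3854, 7082, 1061, 1266 and 274 FPKM in HXP 1 to 6, against 1297 to 8114 FPKM in MI and 355 to 538 FPKM in control. HXP 6 thus lay below the control range, HXP 4 and HXP 5 below all MI libraries, and HXP 1, 2 and 3 inside the MI range. Col1a1, the main scar collagen, held 185, 186, 345, 50.7, 41.3 and 2.29 FPKM in HXP 1 to 6 and 188, 210, 284, 228, 668 and 74.1 FPKM in MI 1 to 6 (log2 fold change -1.76, standard error 0.82, adjusted p = 0.359 in limma).

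Other scar genes also ranged widely in HXP. Comp, a matrix protein of cartilage and scar, ranged from 0.391 to 361 FPKM in HXP and from 22.0 to 574 FPKM in MI (log2 fold change -2.29, adjusted p = 0.344 in limma). Thbs1, thrombospondin 1, ranged from 0.665 to 69.3 FPKM in HXP and from 6.68 to 143 FPKM in MI (log2 fold change -1.79, adjusted p = 0.334 in limma). Loxl1, which crosslinks elastin, and Col11a1, a fibril collagen, had fold changes of -1.57 and -0.97. Timp1, an inhibitor of matrix proteases, stood at 0.528 to 55.0 FPKM over HXP, lowest in HXP 6 and highest in HXP 3, and 9.84 to 67.8 FPKM in MI (log2 fold change -1.31, standard error 0.68, adjusted p = 0.385 in limma). Col3a1 and Postn had fold changes of -1.20 and -1.13. Fibroblast markers moved with them, with all 15 negative and a summed level of 271 to 3407 FPKM in HXP and 791 to 2881 FPKM in MI, and their part was not tested.

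Of 22 TGF-beta genes, 21 had a negative fold change (median -0.48, and -0.32 after scaling) and 8 lay lower at an unadjusted p below 0.05. After scaling 9 lay lower and 1 higher, and with the GC trend removed 4 lay lower and 1 higher. Tgfb1, the ligand that drives fibroblast activation, ranged from 0.906 to 7.04 FPKM in HXP and from 3.76 to 9.86 FPKM in MI (log2 fold change -0.84, standard error 0.28, adjusted p = 0.260 in limma). Smad6, an inhibitory Smad, ranged from 0.118 to 5.08 FPKM in HXP and from 1.98 to 7.99 FPKM in MI (log2 fold change -1.13, adjusted p = 0.251 in limma, and -0.68 with the GC trend removed). Of 25 Wnt ligands, receptors and antagonists, 24 had a negative fold change (median -0.33) and 5 lay lower. Lrp5, a Wnt co-receptor, had a fold change of -0.72 (standard error 0.26, adjusted p = 0.298 in limma) and of -0.46 with the GC trend removed.

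Cardiac stress genes lay lower on balance, with 13 of 14 negative, a median of -0.50 (-0.33 after scaling) and 3 lower at an unadjusted p below 0.05. Nppa, atrial natriuretic peptide, held 2161, 3715, 7107, 884, 1286 and 88.3 FPKM in HXP 1 to 6 and 3732, 3611, 8497, 2077, 8139 and 999 FPKM in MI 1 to 6. HXP 6 stood just under the control range of 89.8 to 348 FPKM. HXP 1, HXP 2, HXP 3 and HXP 5 stood inside the MI range (log2 fold change -1.40, standard error 0.80, adjusted p = 0.416 in limma). Nppb and Myh7, B-type natriuretic peptide and the fetal myosin heavy chain, had fold changes of -0.79 and -0.59. Gdf15, a stress cytokine, ranged from 0.0281 to 1.91 FPKM in HXP and from 1.13 to 15.4 FPKM in MI, with MI 3 and MI 5 far above the rest (log2 fold change -1.52, standard error 0.47, adjusted p = 0.256 in limma). Rcan1, a calcineurin target, had a fold change of -0.63 (adjusted p = 0.323 in limma).

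**Figure D4:**
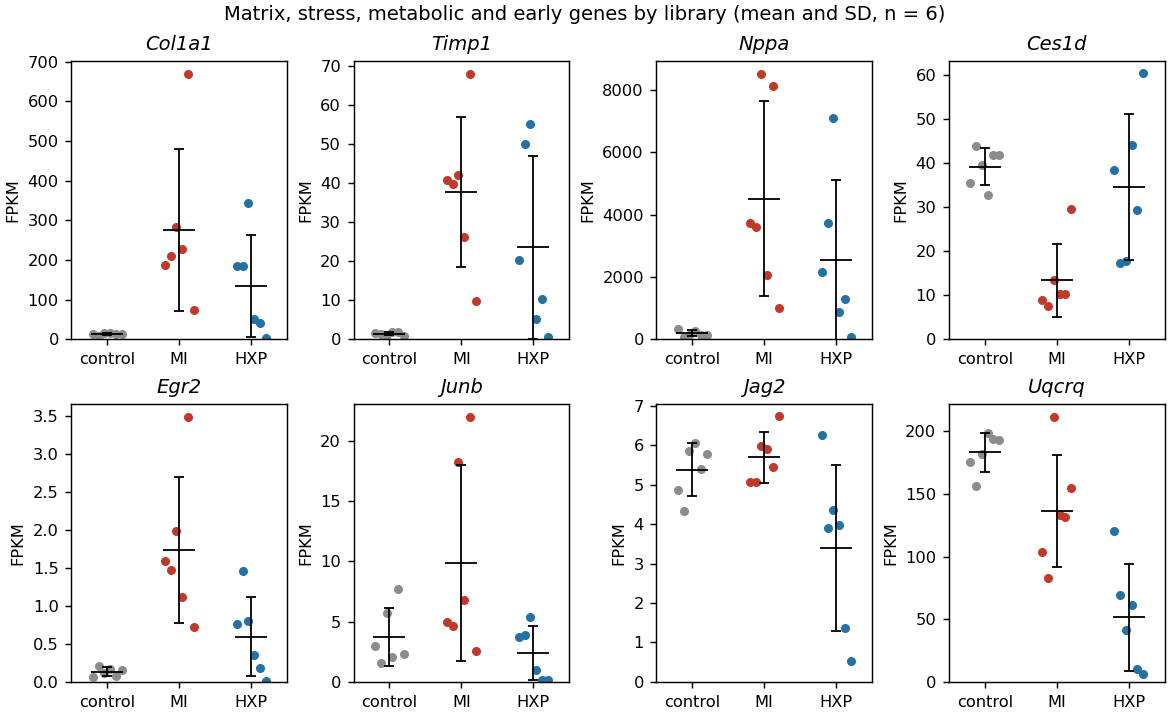
FPKM of 8 genes of matrix, stress, metabolism and early response in each control, MI and HXP library (points), with mean (horizontal tick) and SD (error bar, n = 6, error bars that would pass 0 end at the axis). HXP libraries spread from below the control range up into the MI range for Col1a1, Timp1 and Nppa, and HXP 5 and HXP 6 are the lowest for Junb, Jag2 and Uqcrq.

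Spread between HXP libraries was wider than between MI libraries for most genes. The median within-group SD on the log2(FPKM + 1) scale was 0.319 in HXP, 0.206 in MI and 0.128 in control, and 11242 of 13710 genes (82.0%) had a larger SD in HXP than in MI.

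Immediate early genes, which cells switch on within minutes of a stimulus, had negative fold changes in all 24 tested as deposited and in 22 after scaling. Their median was -0.45 as deposited, -0.31 after scaling and -0.23 with the GC trend removed, and 10 lay lower at an unadjusted p below 0.05. Egr2 held 0.764, 1.46, 0.804, 0.351, 0.190 and 0.0153 FPKM in HXP 1 to 6 and 0.729 to 3.49 FPKM in MI (log2 fold change -0.77, standard error 0.21, adjusted p = 0.248 in limma). Jun and Junb, subunits of the AP-1 factor, had fold changes of -1.06 (standard error 0.32, adjusted p = 0.252 in limma) and -1.68 (standard error 0.52, adjusted p = 0.256 in limma). Junb ranged from 0.124 to 5.36 FPKM in HXP, with HXP 5 and HXP 6 the lowest, and from 2.59 to 22.0 FPKM in MI. Ier2 and Klf2 had fold changes of -1.17 and -0.72 as deposited and -0.70 and -0.22 with the GC trend removed, and Fos of -0.67 (adjusted p = 0.406 in limma). Dusp1, a phosphatase that feeds back on MAP kinases, ranged from 11.8 to 17.6 FPKM in HXP and from 14.4 to 23.0 FPKM in MI (log2 fold change -0.41, standard error 0.12, adjusted p = 0.251 in limma, and -0.27 with the GC trend removed). Of 21 genes of the integrated stress and unfolded protein responses, 20 were negative (median -0.40) and 7 lay lower. After scaling their median was -0.24 and 6 lay lower, and with the GC trend removed it was -0.18 and 3 lay lower.

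Oxidative metabolism lists had medians above that of all genes (-0.12). Glycolysis and the hypoxia response had a median of -0.21 as deposited, with 24 of 27 genes negative. After scaling their median was -0.07, with 16 genes negative and 11 positive, against 50.7% negative of all genes on that scale. Of 27 fatty acid oxidation genes, 18 had a positive fold change (median 0.13, and 0.28 after scaling), but none lay higher or lower at an unadjusted p below 0.05. All 13 mitochondrially encoded protein genes had a positive fold change (median 0.18), and their median exonic GC content was 37.1%. Among them mt-Nd6, a complex I subunit, ranged from 7194 to 13154 FPKM over HXP and from 6350 to 9752 FPKM over MI (log2 fold change 0.36, standard error 0.15, adjusted p = 0.323 in limma). Of 33 nuclear genes of oxidative phosphorylation, 21 were positive (median 0.07) and 1 lay lower. Oxct1, which admits ketone bodies to oxidation, ranged from 187 to 299 FPKM in HXP and from 124 to 255 FPKM in MI (log2 fold change 0.52, standard error 0.21, adjusted p = 0.321 in limma). Aldh6a1, of valine catabolism, had a fold change of 0.35 (adjusted p = 0.334 in limma).

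Several nuclear genes for mitochondrial proteins went the other way. Uqcrq, a complex III subunit, held 121, 69.0, 41.7, 61.2, 10.2 and 6.53 FPKM in HXP 1 to 6 and 104, 82.9, 212, 133, 132 and 155 FPKM in MI 1 to 6 (log2 fold change -1.90, standard error 0.51, adjusted p = 0.248 in limma). HXP 1 alone lay inside the MI range. Mrps12, a mitochondrial ribosomal protein, was also highest in HXP 1 and lowest in HXP 5 and HXP 6, at 10.5, 8.06, 8.55, 5.73, 3.14 and 1.82 FPKM in HXP 1 to 6 and 9.01 to 25.5 FPKM in MI (log2 fold change -1.47, standard error 0.32, adjusted p = 0.196 in limma). Mrpl34 and Romo1, a second ribosomal protein and an inner membrane protein, had fold changes of -1.63 and -1.39, again with HXP 1 alone inside the MI range. Without HXP 1 the fit called 71 genes, 69 lower and 2 higher, and 125 after scaling. Gpr146, Slbp, Arhgap23, Gsta3 and Gstm1 were among the genes called as deposited without it, at adjusted p between 0.0425 and 0.0484. Cox5b, a complex IV subunit, ranged from 26.5 to 50.8 FPKM in HXP and from 44.6 to 175 FPKM in MI (log2 fold change -0.87, standard error 0.29, adjusted p = 0.258 in limma). Esrra, a nuclear receptor that drives mitochondrial genes, held 43.7, 29.0, 21.2, 29.4, 9.73 and 5.79 FPKM in HXP 1 to 6 and 29.2 to 45.9 FPKM in MI (log2 fold change -0.97, standard error 0.33, adjusted p = 0.268 in limma, and -0.62 with the GC trend removed).

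In the immune lists the share of genes lower at an unadjusted p below 0.05 did not exceed the 11.9% of all genes. All 20 macrophage markers had a negative fold change (median -0.45) and 1 lay lower at an unadjusted p below 0.05, with a summed level of 120.5 to 1141 FPKM in HXP and 280.4 to 1236 FPKM in MI. C1qc, a complement subunit made by macrophages, had a fold change of -1.04 (standard error 0.44, adjusted p = 0.334 in limma). All 9 MHC class II genes were negative (median -0.45) and none lay below an unadjusted p of 0.05, with H2-Ab1 between 4.29 and 94.2 FPKM over HXP and between 16.9 and 113 FPKM over MI (adjusted p = 0.410 in limma). Of 31 interferon and MHC class I genes, all were negative (median -0.29) and 3 lay lower, among them Bst2, a tether of budding virus (log2 fold change -1.22, adjusted p = 0.307 in limma).

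Of 26 VEGF, angiopoietin and Notch genes, 24 were negative (median -0.30, and -0.16 after scaling) and 12 lay lower at an unadjusted p below 0.05. After scaling 9 lay lower, against 10.4% of all genes on that scale. With the GC trend removed 4 lay lower and 1 higher, against 5.78% and 5.59% of all genes. Dll4, a Notch ligand of arterial endothelium, ranged from 3.65 to 8.21 FPKM in HXP and from 7.61 to 10.04 FPKM in MI, with HXP 1 alone inside the MI range (log2 fold change -0.45, standard error 0.14, adjusted p = 0.256 in limma, and -0.22 with the GC trend removed). Jag2, another Notch ligand, held 6.26, 3.89, 4.37, 3.98, 1.37 and 0.523 FPKM in HXP 1 to 6 against 5.06 to 6.74 FPKM in MI (log2 fold change -0.78, standard error 0.27, adjusted p = 0.286 in limma, and -0.31 with the GC trend removed). Endothelial markers stood at a summed 208 to 417 FPKM in HXP and 346 to 438 FPKM in MI, and their part was not tested. Egln3, an oxygen-sensing hydroxylase, held 17.4, 16.98, 14.3, 11.2, 14.9 and 13.6 FPKM in HXP 1 to 6 and 18.1 to 25.3 FPKM in MI, without overlap (log2 fold change -0.48, standard error 0.13, adjusted p = 0.239 in limma).

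**Figure D5:**
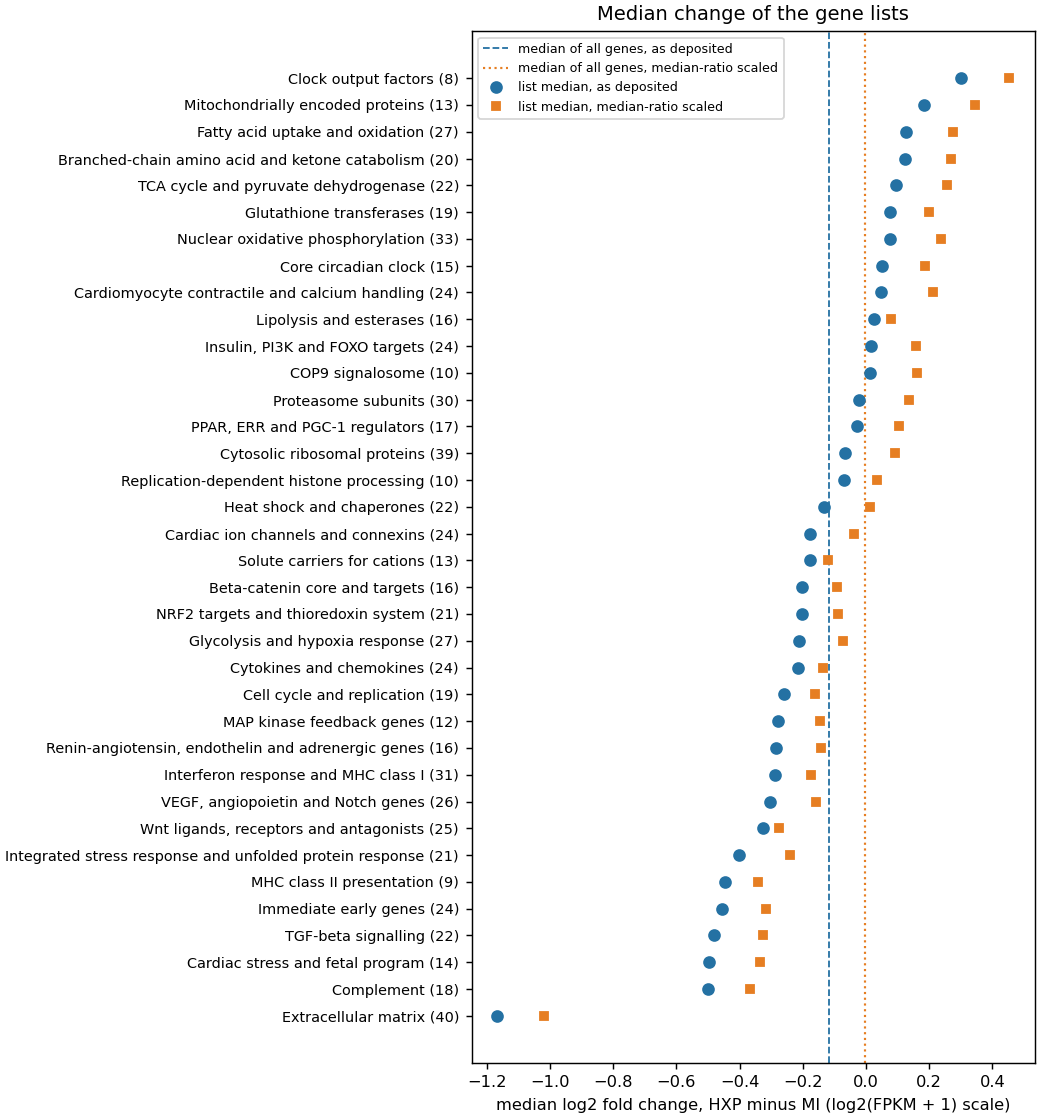
Median log2 fold change of HXP minus MI for the gene lists shown, with the number of genes tested in brackets, on the values as deposited (circles) and after median-ratio scaling (squares), with the medians of all genes as vertical lines. Matrix genes lie lowest at -1.17 and -1.02, and clock output genes highest at 0.30 and 0.45.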

How the data were processed

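Each deposited file lists 1 library's gene IDs with 1 FPKM value each. The unit was inferred from the values, which are whole multiples of 1 read over exon length for 97.9% to 98.3% of the low values checked (tolerance 0.1 read), so that the authors' counting of whole reads could be recovered. The labels name build GRCm38 and limma, per the submitters' processing notes, and the aligner is not given in the sources used here. Of 34150 IDs, 34097 matched GENCODE names.

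Values were tested as log2(FPKM + 1) for the 13710 genes averaging 0.5 FPKM or more over the 18 libraries, in limma 3.58.1 (R 4.3.3, trend on), with 3 group means for all libraries, two-sided, adjusted by Benjamini-Hochberg. Fold changes on this scale understate those of low genes. Scaling used median ratios, and the GC trend was a lowess fit (span 0.3) per library, which also took out its overall offset. Lists were described by counts and medians, with no test. The fit was tested on simulated data.

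Named genes were Gpr146, Slbp and Gstm1, the 10 smallest p in each direction, genes called after scaling, the 5 largest changes each way, the 3 smallest p of each list, 7 stress and scar genes (Nppa, Nppb, Myh7, Col1a1, Col3a1, Postn and Timp1) and genes within 100 kb of the first 3, all by rule. Gsta4, Gstk1, Per1, Per2, Ciart, Npas2, Cry1, Dbp, Nr1d1, Nfil3, Hist1h2bg, Hist1h2bc, Arhgef10l, Irx4, Nkx2-5, Nol3, Kcnv2, Shld1, Ptgds, Uqcrq, Mrpl34, Romo1, Thbs1, Klf2, Ier2 and Fos were named after their values were seen. The members and lists were chosen with earlier results of these data known. Of the alternatives, 5 were added after seeing the data: scaling with the 12 libraries alone, in the run of 10 alone, with the GC trend removed, without HXP 5 and HXP 6, and without MI 4 and MI 5. Some results are not reported here.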

Additional observations from a re-analysis of the deposited data

Results flagged for a closer look

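Of 172 groups of 6 libraries tested for 86 genes, 5 held a library that stood apart from the rest of its group by Dixon's test, and chance flags about 1 in 20 groups. Gsta3 was low in MI 5, at 0.517 FPKM. Nkx2-5 was high in MI 3, at 22.4 FPKM. Comp was low in MI 6, at 22.0 FPKM. Cox5b was high in MI 3, at 175.5 FPKM, as was Romo1, at 61.1 FPKM.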

How the results depend on the processing

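Against 0 genes called as deposited, 4 were called after median-ratio scaling and 4 after quantile normalization, 5 with the GC trend removed and 5 with that and scaling. The replicate block called 1 gene, 2 with the GC trend removed and 2 with scaling. Same-numbered HXP and MI libraries correlated from -0.31 to 0.63 in their deviations, and 1 of 6 correlated best with its own number. Such correlations cannot tell whether the numbers pair the libraries, and the main fit did not pair them. The run of 10 libraries alone called 3 genes, and 6 with scaling. Leaving out 1 library called 0 to 71 genes, and 0 to 125 with scaling, the most without HXP 1. Leaving out HXP 5 and HXP 6 called 0, and 1 with scaling. No filter, a higher filter, a pseudocount of 0.1, a robust prior, scaling without mitochondrial genes, the run as covariate, voom, the 12 libraries alone, leaving out MI 4 and MI 5 and averaging MI 1 and MI 2 called 0. The mitochondrial share difference ran from 1.33 to 5.14 percentage points without 1 library. Over 86 genes and 48 settings, 13 of 4100 fold changes turned sign, all for Gstm2 and Per1. Some genes given above are not among the 86, such as Adap1, whose sign turned with the GC trend removed. The fold change of Gstm2 ran from -0.0402 to 0.0702 without 1 library. That of Per1 ran from -0.0836 to 0.231 without 1 library, and was -0.0514 with the run as covariate, -0.0795 in the run of 10 libraries, -0.0227 there with scaling and -0.0503 with MI 1 and MI 2 averaged. The cause of these shifts was not tested.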
